A study of Mus musculus with 24 samples.

Results

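The core loop of the circadian clock was followed through the endothelium of galectin-3 knockout and wild-type mice on 2 diets. Its 10 members, Arntl, Clock, Npas2, Per1, Per2, Per3, Cry1, Cry2, Nr1d1 and Nr1d2, were chosen by name, and were found through the accession that each array probe carries. They are 10 of the 18747 gene symbols with a probe on the array, and they are measured by 17 probes. For a gene with several probes the values are those of its brightest probe in that tissue, and its remaining probes come up only where they disagree.

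Male C57BL/6 wild-type mice (WT) and galectin-3 (-/-) mice (KO), all from 8 weeks of age, ate either chow with 12% of calories from fat or a high-fat diet (HFD) with 60% for 8 weeks. The aorta and a group of leg muscles were digested, and live cells positive for the endothelial surface protein CD105 and negative for the leukocyte protein CD45 were sorted. Cells of 3 animals were pooled for an array, and the 8 groups of tissue, strain and diet each had 3 arrays, 1 from each of 3 experiments, 24 in all. The comparisons asked how the endothelium of each strain responded to HFD, and whether the strains and tissues differed in it. The knockout is in the whole animal, so the groups do not separate endothelial from other loss of galectin-3, and the pools leave animal-to-animal spread unmeasured. The clock time at which tissue was taken is not given in the sources used here, so a changed level and a shifted phase of a daily rhythm cannot be told apart.

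As background, the clock is a loop of transcription and translation that runs in nearly every cell. The proteins of Arntl (BMAL1) and Clock, or its paralogue Npas2, pair and switch on genes that carry an E-box, among them the period genes Per1, Per2 and Per3, the cryptochrome genes Cry1 and Cry2, and the REV-ERB genes Nr1d1 and Nr1d2. Period and cryptochrome proteins return to the nucleus and hold the activators down, and the REV-ERB receptors repress Arntl itself, so Arntl and the REV-ERB genes peak at opposite times of day. Endothelial cells of the aorta and of muscle capillaries carry this loop, which is known for its part in the daily course of vascular tone and coagulation.

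The bases just before the gene starts are shown because the REV-ERB genes and Arntl carry the main differences below and the E-box is the letter code through which the activators act. The windows are the 250 bases before a RefSeq start (build GRCm38.p6), read 5' to 3' on the gene's strand, with any match to the E-box CACGTG or its variant CACGTT in capitals (a match on the other strand reads AACGTG here).

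Nr1d1, chr11:98775378-98775627, minus strand: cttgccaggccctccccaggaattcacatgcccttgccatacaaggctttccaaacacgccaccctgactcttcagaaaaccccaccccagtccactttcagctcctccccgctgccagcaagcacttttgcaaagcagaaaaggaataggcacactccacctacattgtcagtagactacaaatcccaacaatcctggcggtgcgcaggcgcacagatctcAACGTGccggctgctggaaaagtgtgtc
Nr1d2, chr14:18239107-18239356, minus strand: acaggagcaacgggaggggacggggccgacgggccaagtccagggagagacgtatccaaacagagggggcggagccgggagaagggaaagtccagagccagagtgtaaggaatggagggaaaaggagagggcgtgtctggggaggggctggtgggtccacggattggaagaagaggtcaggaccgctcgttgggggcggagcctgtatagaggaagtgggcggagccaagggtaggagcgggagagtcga
Arntl, chr7:113207215-113207464, plus strand: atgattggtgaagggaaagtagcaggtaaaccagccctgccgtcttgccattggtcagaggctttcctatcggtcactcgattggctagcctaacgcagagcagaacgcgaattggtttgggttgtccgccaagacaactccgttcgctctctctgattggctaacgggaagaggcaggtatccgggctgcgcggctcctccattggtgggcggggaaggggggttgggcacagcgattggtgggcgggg
Cry1, chr10:85185055-85185304, minus strand: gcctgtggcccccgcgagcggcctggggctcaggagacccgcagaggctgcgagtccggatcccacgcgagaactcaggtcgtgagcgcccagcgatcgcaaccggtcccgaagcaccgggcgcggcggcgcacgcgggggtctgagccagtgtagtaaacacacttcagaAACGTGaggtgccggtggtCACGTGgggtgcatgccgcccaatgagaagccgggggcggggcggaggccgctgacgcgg
Per1, chr11:69098699-69098948, plus strand: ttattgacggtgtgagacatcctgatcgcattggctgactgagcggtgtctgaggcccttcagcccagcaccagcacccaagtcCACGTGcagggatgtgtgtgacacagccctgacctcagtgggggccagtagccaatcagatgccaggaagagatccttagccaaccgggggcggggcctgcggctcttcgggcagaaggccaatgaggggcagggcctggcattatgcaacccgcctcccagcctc

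The search covered both strands for the E-box CACGTG, the variant CACGTT, the D-box TTANGTAA, the ROR elements TAGGTCA and TGGGTCA, and the cAMP element TGACGTCA. The printed Per1 window held 1 E-box, 166 to 161 bases before the start. The Cry1 window held an E-box 60 to 55 bases before the start and the variant 79 to 74 bases before it. Nr1d1 had the variant 28 to 23 bases before its start, Cry2 had it 166 to 161 bases before, and the Per3 window held 2 D-boxes. No code was found in the 2 windows of Arntl, the 3 of Clock, or those of Npas2 and Nr1d2. Bases outside these windows and other spellings of the codes were not searched. Of 32851 windows of this length, 6.02% held CACGTG, 3.85% the variant and 2.06% the D-box, and a match is a description of letters only. Per2 was not matched in the table.

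Levels are log2 of the probe's signal over the 75th percentile of its array, so 0 is that percentile, and 1 unit is a doubling. The 75th percentile ran from 2390 to 5938 intensity units, and 59.6% to 75.7% of spots were well above background. The targeted gene itself goes against the strain labels: Lgals3 was higher on the arrays labelled KO by 1.54 in aorta (SE 0.42) and 1.02 in muscle (SE 0.30), in 5 of 6 and 6 of 6 comparisons within a slide. Where its probe lies relative to the deleted part is not known here, so the probe checks nothing. The study's methods describe checks of the deletion in genomic DNA, RNA and protein and call the array's oligonucleotides 3' biased, and every strain difference below is one between arrays labelled KO and WT. All 13 endothelial markers were well above background in each of the 8 groups. Other cells' markers were measured as well. In aorta the median log2 summed level of 8 fibroblast markers exceeded that of the endothelial markers in WT HFD (9.04 against 8.12). It also did so in KO HFD (8.84 against 8.18) and in WT chow, but not in KO chow. On muscle arrays the endothelial level was 8.95 or more, while the fibroblast level reached 7.81 and the skeletal muscle fibre level 7.49. Endothelium here therefore names the sorted cells, and their purity was not tested. In aorta, 10 of 10 tested adipocyte markers were lower on HFD, with a median of -3.37. Of them 1 passed the test, where 0.0309% of all probes tested in aorta did. The log2 of the adipocyte markers' summed level spanned 7.58 to 8.01 and 7.71 to 8.89 on chow (WT and KO). On HFD it spanned 6.68 to 6.75 and 6.38 to 7.25. In muscle their median was -0.50 and the summed level spanned 7.04 to 7.22 and 7.31 to 7.79 on chow against 6.75 to 7.17 and 6.88 to 7.43 on HFD. Leptin was well above background on no array of 7 groups. Fewer cells of a type and less RNA in each cannot be told apart in such arrays.

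The REV-ERB genes rose on HFD in muscle endothelium, Nr1d1 by 5.66-fold and Nr1d2 by 2.79-fold, and both were higher in 6 of 6 pairs of an HFD and a chow array of the same strain and experiment in each tissue. They encode nuclear receptors that repress Arntl and many metabolic genes. In muscle, Nr1d1 stood at -3.27, -2.70 and -2.45 in WT on chow in experiments 1, 2 and 3, and at -0.02, -1.48 and 0.41 on HFD. In KO it stood at -2.10, -0.66 and -1.80 on chow and at 1.30, 1.14 and 0.70 on HFD. The diets thus overlapped at 1 array, the WT HFD array of experiment 2, which lay below a KO chow array. The mean difference was 2.50 (SE 0.33, 6 pairs, adjusted p = 0.0496).

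Nr1d2 in muscle was -0.76, -0.72 and -0.15 in WT on chow and 1.11, 0.67 and 1.46 on HFD. In KO it was 0.20, -0.50 and 0.77 on chow and 1.73, 0.66 and 2.09 on HFD. Every pair moved up, between 1.16 and 1.87, and the overlap of the diets came from the KO chow array of experiment 3. The mean difference was 1.48 (SE 0.15, adjusted p = 0.0358). Neither call survived with 1 experiment fewer: the adjusted p of Nr1d1 was 0.291, 0.265 and 0.224 without experiments 1, 2 and 3, at differences of 2.09 to 3.00. That of Nr1d2 was 0.268, 0.276 and 0.2, at differences of 1.37 to 1.58.

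In aorta the REV-ERB genes had the same sign but did not pass the test. Nr1d1 was -1.88, -1.70 and -1.49 in WT on chow and 0.20, -0.06 and -0.48 on HFD, and in KO -1.80, -0.46 and -0.49 on chow and 1.57, 1.43 and 0.76 on HFD. The difference averaged 1.87 (SE 0.32, adjusted p = 0.116). Nr1d2 was -0.04, 0.03 and 0.44 in WT on chow and 1.28, 0.58 and 1.32 on HFD, and in KO 0.10, -0.23 and 0.79 on chow and 1.83, 1.09 and 1.82 on HFD. The difference averaged 1.14 (SE 0.20, adjusted p = 0.121). Across all probes tested in aorta, 5.85% were higher on HFD in 6 of 6 pairs, and in muscle 5.63%, so an even sign alone is not rare.

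**Figure D1:**
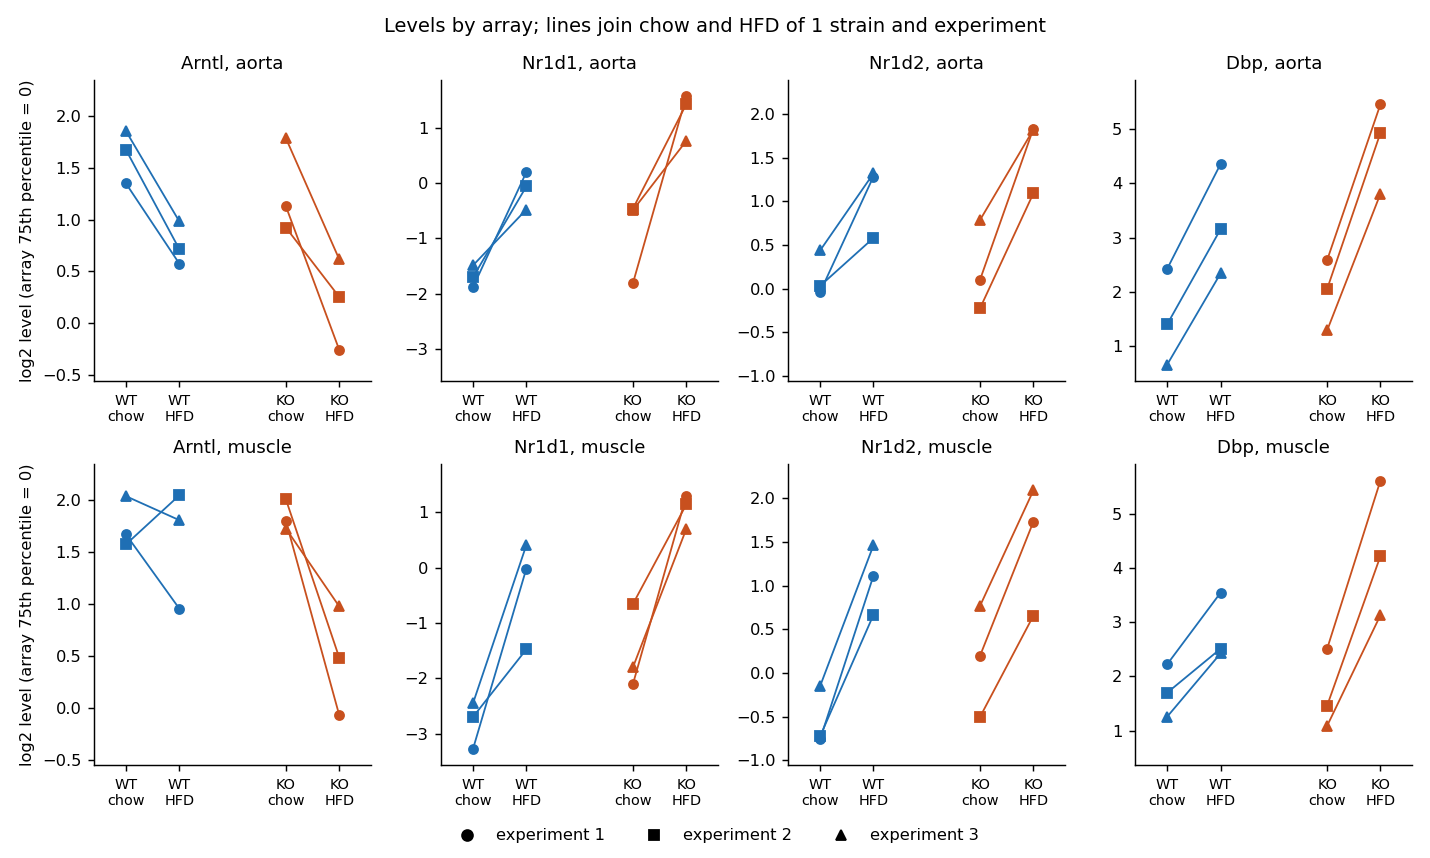
Log2 levels of Arntl, Nr1d1, Nr1d2 and the output gene Dbp (vertical axis, 0 is the array's 75th percentile) on each array of the aorta (top) and muscle (bottom). Marker shapes are the 3 experiments, and lines join chow and HFD arrays of 1 strain (blue WT, orange KO) and experiment. All 6 lines of Nr1d1, Nr1d2 and Dbp go up in both tissues, and those of Arntl go down except 1 in muscle.

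The 2 other Nr1d1 probes carried the same sign with smaller differences, 0.61 and 0.40 in aorta and 0.35 and 0.28 in muscle, with 4 or 5 of 6 pairs up and none past the test. The size of the Nr1d1 difference therefore rests on its brightest probe, and Nr1d2 has 1 probe.

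Arntl, which encodes the activator BMAL1, lay lower on HFD but passed no test. In aorta it was 1.35, 1.67 and 1.85 in WT on chow and 0.58, 0.72 and 0.98 on HFD. In KO it was 1.13, 0.92 and 1.79 on chow and -0.25, 0.25 and 0.62 on HFD. The 6 pairs were all down, between -1.38 and -0.67, with a mean of -0.97 (SE 0.18, 1.96-fold, adjusted p = 0.132). In muscle, KO arrays went from 1.80, 2.01 and 1.73 on chow to -0.07, 0.49 and 0.98 on HFD, and WT arrays from 1.67, 1.58 and 2.04 to 0.96, 2.05 and 1.81. The muscle mean was -0.77 (SE 0.23, adjusted p = 0.188), from -1.38 (SE 0.32) in KO and -0.16 (SE 0.32) in WT, where 1 pair of 3 was up. Among all probes tested in aorta, 4.55% were lower in 6 of 6 pairs.

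The partners of Arntl moved little. Clock, whose protein pairs with BMAL1, differed by 0.02 in aorta (SE 0.18) and -0.13 in muscle (SE 0.14), and its 6 pairs ran from -0.25 to 0.26 and from -0.32 to 0.09. Its dimmest probe read -0.73 in aorta (SE 0.22, adjusted p = 0.238) and -0.84 in muscle (SE 0.23, adjusted p = 0.168), so the probes of Clock disagree. Npas2 was well above background on 11 of 24 arrays, on 3 of 3 in WT chow aorta and on 0 of 3 in WT HFD aorta. It entered the aorta test through WT chow alone, the group where it is highest. The measured means of WT chow and WT HFD aorta, -5.63 and -6.42 (adjusted p = 0.842), therefore support no difference. Per3 was well above background on 4 of 24 arrays and was not tested in either tissue.

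The period and cryptochrome genes, the repressors of the loop, had no call for diet. Per1, the period gene that answers fastest to outside signals, differed by 0.01 in aorta (SE 0.34) and -0.31 in muscle (SE 0.24). Per2 differed by -0.35 in aorta (SE 0.48) and -1.09 in muscle (SE 0.49, adjusted p = 0.329). Its muscle value owes much to 1 array, WT HFD of experiment 2, at -4.78 where the other 11 muscle arrays lay between -1.86 and 0.12. Without experiment 2 the Per2 difference in muscle was -0.35 (adjusted p = 0.655), and in aorta it turned to 0.26 (SE 0.51). The other Per2 probe, well above background on 24 of 24 arrays, read -0.02 in aorta with 4 of 6 pairs up and 0.02 in muscle with 2 of 6 up, so the probes of Per2 disagree.

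Cry1, the stronger of the cryptochrome repressors, was lower on HFD in 5 of 6 pairs of each tissue. In aorta it ran from -2.89 to -1.63 on chow and from -4.94 to -2.03 on HFD, a difference of -0.96 (SE 0.34, adjusted p = 0.285), and from -1.43 to -0.56 with an experiment left out. In muscle it ran from -2.12 to -0.88 on chow and from -3.26 to -1.15 on HFD, a difference of -0.41 (SE 0.19, adjusted p = 0.343). Cry2 differed by -0.27 in aorta (SE 0.24) and 0.00 in muscle (SE 0.19), with 3 pairs up and 3 down in each. The other Cry2 probe was well above background on 5 of 24 arrays, so its differences are not given.

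**Figure D2:**
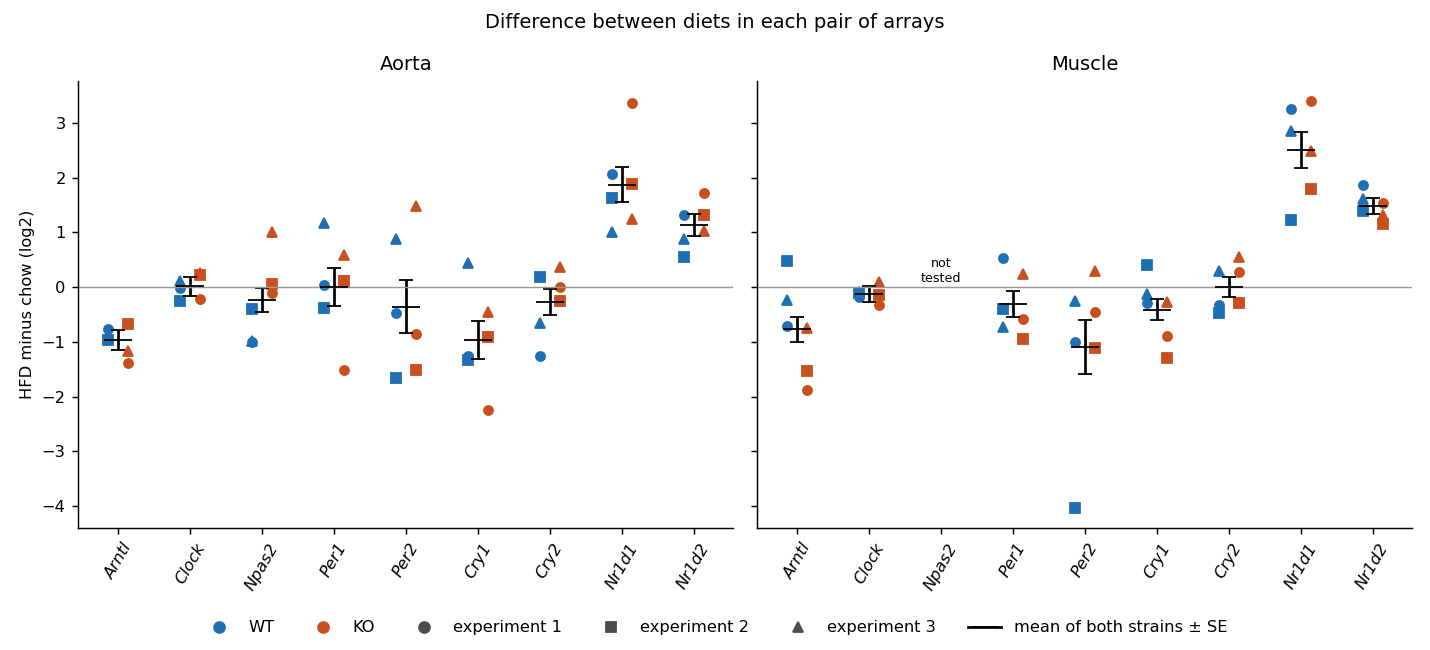
HFD minus chow on the log2 scale (vertical axis) for each tested member in aorta (left) and muscle (right), 1 point for each pair of arrays of a strain (blue WT, orange KO) and experiment (shape), with the mean of both strains and its SE from limma in black. Nr1d1 and Nr1d2 lie above 0 in every pair, Clock stays near 0, and Per2 in muscle has 1 pair at -4.03.

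Counted over the members, 2 of 8 tested in muscle were called for diet over both strains, both higher, where 0.288% of all 25682 probes were called and 0.167% were called higher. With Arntl, 3 of 8 had an unadjusted p under 0.05 there, against 16.4% of all probes. In aorta 0 of 9 were called by limma, with 4 at an unadjusted p under 0.05 (2 REV-ERB genes higher, Arntl and Cry1 lower), where 0.0309% of 25865 probes were called and 15.1% had such a p. Within a strain no member was called by limma: at an unadjusted p under 0.05 there were 4 of 9 in WT aorta (3 of 8 without Npas2, which passed the filter only through WT chow, all probes 5.77%), 4 of 9 in KO aorta (11.3%), 3 of 8 in WT muscle (12.1%) and 4 of 8 in KO muscle (8.49%). Of all probes 0.00389% were called in KO muscle and none in the other 3 comparisons. The methods' t-test on the same values also called none after adjustment, with 2 members in each of these 4 comparisons at an unadjusted p under 0.05. Markers of other cells moved with diet beside these counts. In muscle 8 of 8 fibroblast markers were higher on HFD with a median of 1.02, none past the test, and their summed level spanned 4.86 to 6.79 and 4.58 to 7.13 on chow against 5.19 to 7.79 and 5.49 to 7.81 on HFD (WT and KO). The endothelial markers had a median of -0.59 in aorta and -0.02 in muscle. The macrophage markers had 0.02 and 1.49, with 7 of 8 higher on HFD in muscle and none past the test. On all 3 arrays of a muscle group, 7 of 9 macrophage markers were well above background in WT HFD. In WT chow 5 were, in KO chow 4 and in KO HFD 4. The filter can thus favour markers that are high in 1 group, so this count and median support no difference. The log2 of the summed macrophage level in muscle spanned -2.11 to 1.02 and -1.20 to 0.84 on chow against -0.40 to 2.48 and -2.17 to 3.58 on HFD (WT and KO). Their part in the clock values was not tested. Of 2 inputs that can reset the clock, the immediate early genes had a median of -0.08 in each tissue. The 8 glucocorticoid targets, a list that holds Per1, had -0.46 in aorta and -0.18 in muscle, with no call for either list. Of these targets 7 were lower in aorta, 3 of them at an unadjusted p under 0.05, and 8 in muscle, 1 of them at such a p. Of the 15 immediate early genes 12 were lower in each tissue, 0 of them at such a p.

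Each pool of animals gave an aorta and a muscle array, and the mean of both was compared as well, a contrast chosen after the data were seen. Over 6 pairs Nr1d1 rose by 2.19 (SE 0.27, 4.55-fold, adjusted p = 0.0429) and Nr1d2 by 1.31 (SE 0.15, 2.48-fold, adjusted p = 0.0389). Arntl differed by -0.87 (SE 0.16, adjusted p = 0.0893) and Cry1 by -0.69 (SE 0.21, adjusted p = 0.179). Called were 2 of 9 members, both higher, where 0.237% of 27387 probes were called and 0.157% were called higher. A further 2, Arntl and Cry1, had an unadjusted p under 0.05, as 18.2% of all probes did. The response of the aorta minus that of the muscle was called for 0 of 9 members by limma, and 0 had an unadjusted p under 0.05 (10.4% of all probes did), with Nr1d1 at -0.63 (SE 0.37) and Nr1d2 at -0.34 (SE 0.19).

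Among the output and modulator genes of the clock, the gene Dbp rose on HFD in both tissues. Dbp encodes a PAR-bZIP activator that the loop drives through E-boxes and that binds D-boxes. In aorta it was 2.42, 1.40 and 0.66 in WT on chow and 4.36, 3.15 and 2.34 on HFD, and in KO 2.58, 2.05 and 1.29 on chow and 5.46, 4.93 and 3.81 on HFD. In muscle it was 2.22, 1.70 and 1.25 in WT on chow and 3.54, 2.51 and 2.42 on HFD, and in KO 2.51, 1.46 and 1.09 on chow and 5.61, 4.22 and 3.13 on HFD. All 6 pairs of each tissue went up, and both tissues came from the same pools of animals. The mean difference was 2.27 in aorta (SE 0.17, 4.84-fold, adjusted p = 0.0192) and 1.87 in muscle (SE 0.19, 3.65-fold, adjusted p = 0.0358). With 1 experiment left out the differences were 2.21 to 2.36 and 1.69 to 2.00, with adjusted p = 0.168 or more in aorta and adjusted p = 0.185 or more in muscle, whichever of the 3 was left out.

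Of the 13 output and modulator genes, 12 were tested in aorta and 10 in muscle, and Dbp was the 1 called in each. At an unadjusted p under 0.05, 5 were higher and 1 lower in aorta, and 3 higher and 2 lower in muscle, where 15.1% and 16.4% of all probes had such a p in either direction. The list's median was 0.30 in aorta and 0.03 in muscle, against 0.01 and -0.01 over all probes. Beside Dbp, the aorta differences included those of Ciart, a repressor of the activator pair, at 1.49 (SE 0.30, adjusted p = 0.146). Bhlhe41 (DEC2) is among the 5 but passed the filter only through the HFD groups and was well above background on 0 of 3 KO chow arrays, so no difference is given for it. The aorta count of 5 and median of 0.30 include Bhlhe41, so neither is read as a result for the list. The muscle differences included those of Rora, which encodes the receptor that drives Arntl, at -0.99 (SE 0.18, adjusted p = 0.0996), Ciart at 0.97 (SE 0.37, and 0.41 without experiment 1) and Nfil3, a repressor at D-boxes, at -0.93 (SE 0.22, adjusted p = 0.139). Of the 12 genes for clock protein turnover, kinases, ubiquitin ligases and related enzymes, none was called by limma in 11 tested in aorta and 12 in muscle. There 0 of 11 were higher and 2 lower at an unadjusted p under 0.05 in aorta, and 0 of 12 higher and 3 lower in muscle, beside those 15.1% and 16.4% of all probes. The largest was Btrc in muscle, a ubiquitin ligase subunit for period proteins, at -1.47 (SE 0.40, adjusted p = 0.168). Its probe dropped out where only probes well above background on every array were kept. Over the 9 other alternatives its difference ran from -1.87 to -0.71, so its size is uncertain.

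Between the strains no member was called. Nr1d1 was higher on the arrays labelled KO in 6 of 6 comparisons within a slide in each tissue, by 1.07 in aorta (SE 0.28, adjusted p = 0.83) and 1.35 in muscle (SE 0.36, adjusted p = 0.914). Over all probes, 2.55% in aorta and 3.49% in muscle were higher in 6 of 6. Nr1d2 differed by 0.30 (SE 0.26) and 0.56 (SE 0.30), and Arntl by -0.45 (SE 0.23) and -0.53 (SE 0.24), lower in 6 of 6 comparisons in aorta, as were 1.92% of all probes. The other Nr1d1 probes gave strain differences down to 0.07 in aorta and 0.37 in muscle. Of the members, 1 of 9 in aorta and 1 of 8 in muscle, Nr1d1 both times, had an unadjusted p under 0.05, against 3.38% and 3.27% of all probes, and limma called 0.0116% of all probes in aorta and none in muscle.

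The response to HFD differed between the strains past the adjusted threshold for no member by limma. For Arntl in muscle the KO response was lower than the WT response by 1.22 (-1.38 against -0.16, SE 0.45), while in aorta the responses were -1.07 and -0.87 (difference -0.21, SE 0.36). The Nr1d1 responses were 2.17 and 1.57 in aorta and 2.56 and 2.44 in muscle, and their differences had SEs of 0.63 and 0.65. Npas2 in aorta gave 1.11 (SE 0.45), but it entered the test through WT chow alone, the group where it is highest, and was well above background on 0, 1 and 1 of 3 arrays in the other 3 aorta groups, so it supports no difference. Without Npas2, 0 of 8 members in aorta and 1 of 8 in muscle had an unadjusted p under 0.05, where 2.62% and 4.12% of all probes had one and none was called. The methods' t-test gave 0 in each. Dbp had the larger response on the arrays labelled KO in both tissues, by 0.97 in aorta (SE 0.34) and 1.54 in muscle (SE 0.38), neither past adjustment.

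Ordered by group mean, Arntl was highest in KO chow muscle (1.85 ± 0.15, SD, n = 3) and lowest in KO HFD aorta (0.21). Of the 7 steps between neighbours in that order, 1 exceeded the larger SD of the pair, the step from KO chow aorta (1.28) to WT HFD aorta (0.76). Nr1d1 ran the other way, from KO HFD aorta (1.25) to WT chow muscle (-2.81), with its largest step from KO HFD muscle (1.04) to WT HFD aorta (-0.11). The step from WT chow aorta (-1.69) to WT chow muscle also exceeded the larger SD. For Nr1d2 the 4 HFD groups took the top places, from 1.58 in KO HFD aorta to 1.06 in WT HFD aorta, and the 4 chow groups the places from 0.22 to -0.54. Clock had no step larger than the SD, from 1.89 in WT chow muscle to 1.42 in KO chow aorta.

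Per1 was lower in aorta than in muscle endothelium, by 1.15 (SE 0.34, 2.22-fold, adjusted p = 0.0148). It ran from 0.45 to 2.27 over the 12 aorta arrays and from 1.70 to 3.14 over the 12 muscle arrays, so the tissues overlapped, and without experiment 2 the adjusted p was 0.261. Cry1 differed by -0.92 with its brightest probe (SE 0.40, adjusted p = 0.0977). The other Cry1 probe was well above background on 6 of 12 aorta and 11 of 12 muscle arrays, so its aorta values lay partly near the floor. It read -1.48 (SE 0.51, adjusted p = 0.0381), which is not taken as a call for Cry1. Arntl differed by -0.45 (SE 0.21, adjusted p = 0.117), Clock by -0.27 (SE 0.21) and Cry2 by -0.29 (SE 0.22). Nr1d1 and Nr1d2 differed by 0.54 (SE 0.36) and 0.20 (SE 0.23), though the other Nr1d1 probes read -0.26 and -0.28. The tissue contrast was broad: 28.2% of all 27387 probes were called, 16.7% lower in aorta, and the median of all probes was -0.27, which is not subtracted from these values. Of the members 1 of 9 was called, and 3 of 9 had an unadjusted p under 0.05, as 39.8% of all probes did. The markers moved widely with tissue, with a median of -6.41 for 10 skeletal muscle fibre genes, 4.16 for 8 fibroblast genes and -1.14 for 13 endothelial genes, and their part in the Per1 difference was not tested. Each slide held 1 tissue and 1 experiment, so slide and tissue were separated only through the 6 slides.

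Of 12 output and modulator genes tested, 4 were called between the tissues, and of 12 turnover genes 2, beside the 28.2% of all probes. Bhlhe40 (DEC1), a repressor at E-boxes, was higher in aorta by 1.20 (SE 0.27, adjusted p = 0.00245) and Nfil3 by 1.44 (SE 0.33, adjusted p = 0.00318). Timeless was lower in aorta by 1.67 (SE 0.39, adjusted p = 0.00332) and Cipc, which inhibits CLOCK, by 0.94 (SE 0.22, adjusted p = 0.00378). Of the turnover genes, Usp2, a deubiquitinating enzyme, was higher by 1.14 (SE 0.40, adjusted p = 0.0414) and Csnk1e, a kinase of period proteins, lower by 0.60 (SE 0.17, adjusted p = 0.0134). Without experiment 2 the adjusted p was 0.102 for Bhlhe40, 0.0702 for Cipc, 0.186 for Usp2 and 0.143 for Csnk1e, and without experiment 1 it was 0.0743 for Timeless and 0.0573 for Csnk1e. Without experiment 3 it was 0.2 for Usp2 and 0.0826 for Csnk1e. Csnk1e also lost its call with quantile scaling and with the deposited table, and Usp2 with no filter on dim probes.

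**Figure D3:**
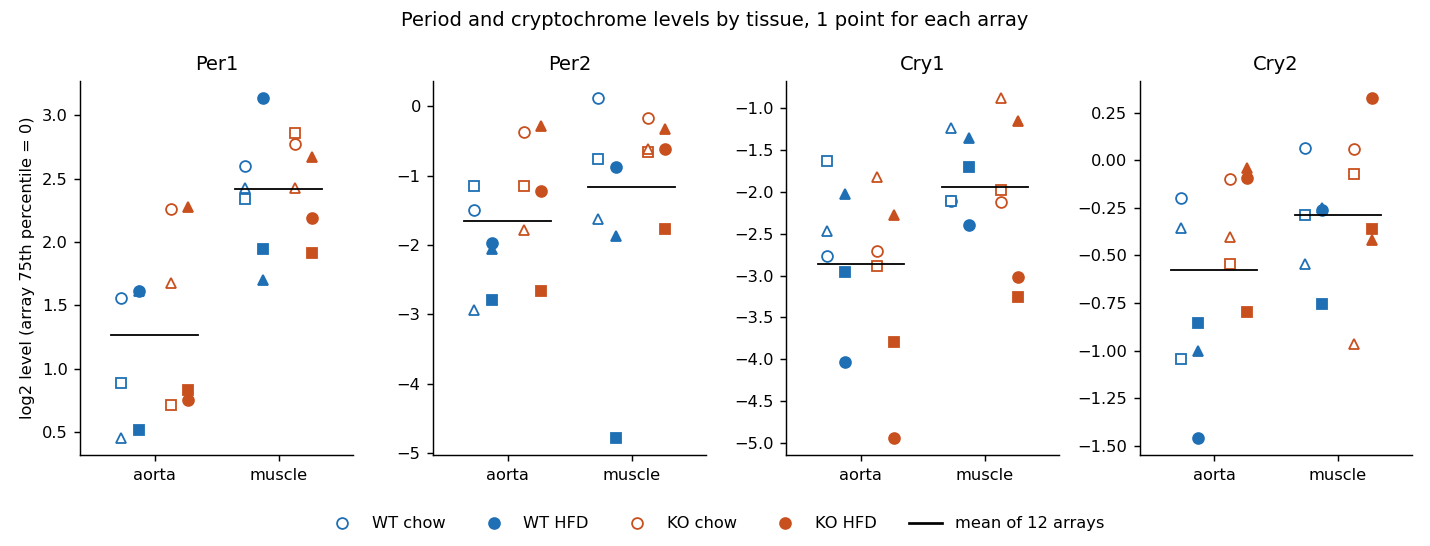
Log2 levels of Per1, Per2, Cry1 and Cry2 (vertical axes, each on its own scale, 0 is the array's 75th percentile) in aorta and muscle, 1 point for each array, blue WT and orange KO, open chow and filled HFD, shapes for experiments, with the mean of 12 arrays as a line. The Per1 means lie apart (1.26 in aorta and 2.42 in muscle), and 1 Per2 array of muscle lies at -4.78.

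Whether the members deviated together among arrays of 1 group was asked with deviations from the 4 group means of a tissue, 12 arrays each. Of 18 relations of Arntl with another member, 1 passed the exact permutation test within groups (2-sided) after adjustment: Clock in aorta, with r = 0.89 (p = 0.000772, adjusted p = 0.0139) and rho = 0.85 (p = 0.00154, adjusted p = 0.0278). Without the 2 arrays farthest from the median r was 0.90, but with slide means removed it was 0.40. Slides are also experiments. In muscle the Clock relation was r = 0.74 (exact p = 0.0432, adjusted p = 0.183), rho was 0.67 (exact p = 0.0687, adjusted p = 0.344), and r without the 2 farthest arrays was 0.56. Cry1 in aorta had r = 0.83 (exact p = 0.00617, adjusted p = 0.0556) and rho = 0.82 (exact p = 0.00772, adjusted p = 0.0694), with r = 0.79 without the 2 farthest arrays and 0.55 with slide means removed. Nr1d1 had r = -0.14 in aorta (exact p = 0.77) and -0.24 in muscle (exact p = 0.654).

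The experiments differed for the clock genes across groups. Clock was highest in experiment 3 in 8 of 8 groups, with means over groups of 1.29, 1.57 and 2.13 in experiments 1, 2 and 3. Cry1 and Nr1d2 were highest in experiment 3 in 7 of 8 groups and Arntl in 6 of 8. Dbp was highest in experiment 1 and lowest in experiment 3 in 8 of 8 groups, with means of 3.59, 2.68 and 2.00. Only the part of a shift that chow and HFD arrays of an experiment share cancels in the pairs. The pair differences of some genes also varied with experiment. In aorta, those of Cry1 in experiments 1, 2 and 3 were -1.27, -1.33 and 0.44 in WT and -2.24, -0.91 and -0.45 in KO. Those of Dbp in WT aorta, 1.93, 1.75 and 1.68, varied less. Each experiment had 1 slide in each tissue, so within a tissue experiment and slide cannot be told apart. By the file headers, experiment 1 was scanned on another date than experiments 2 and 3.

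Over the 12 arrays of each tissue, group differences included, the 13042 genes tested in both tissues were ranked by likeness to Arntl and to Nr1d1, as a description. The arrays share slides and groups. The gene most opposite to Arntl was Dbp, with r = -0.96 in aorta and -0.91 in muscle, followed by Brca2, Tfr2, Ciart (-0.75 and -0.77) and Slc39a11. The genes most like Arntl were Rnf216 (0.85 and 0.82), Rbm7, Prpf38b, Donson and Fancb, and among the members Cry1 (0.83 and 0.67) came at place 31. The gene most like Nr1d1 was its paralogue Nr1d2 (0.80 and 0.80), followed by Tuba3a, Tmem150a, Dbp (0.83 and 0.74) and Alg8. The most opposite were Rnf216 (-0.83 and -0.82), Tle4, Chpt1, Aldh6a1 and Kyat3, with Arntl (-0.85 and -0.72) at place 6.

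**Figure D4:**
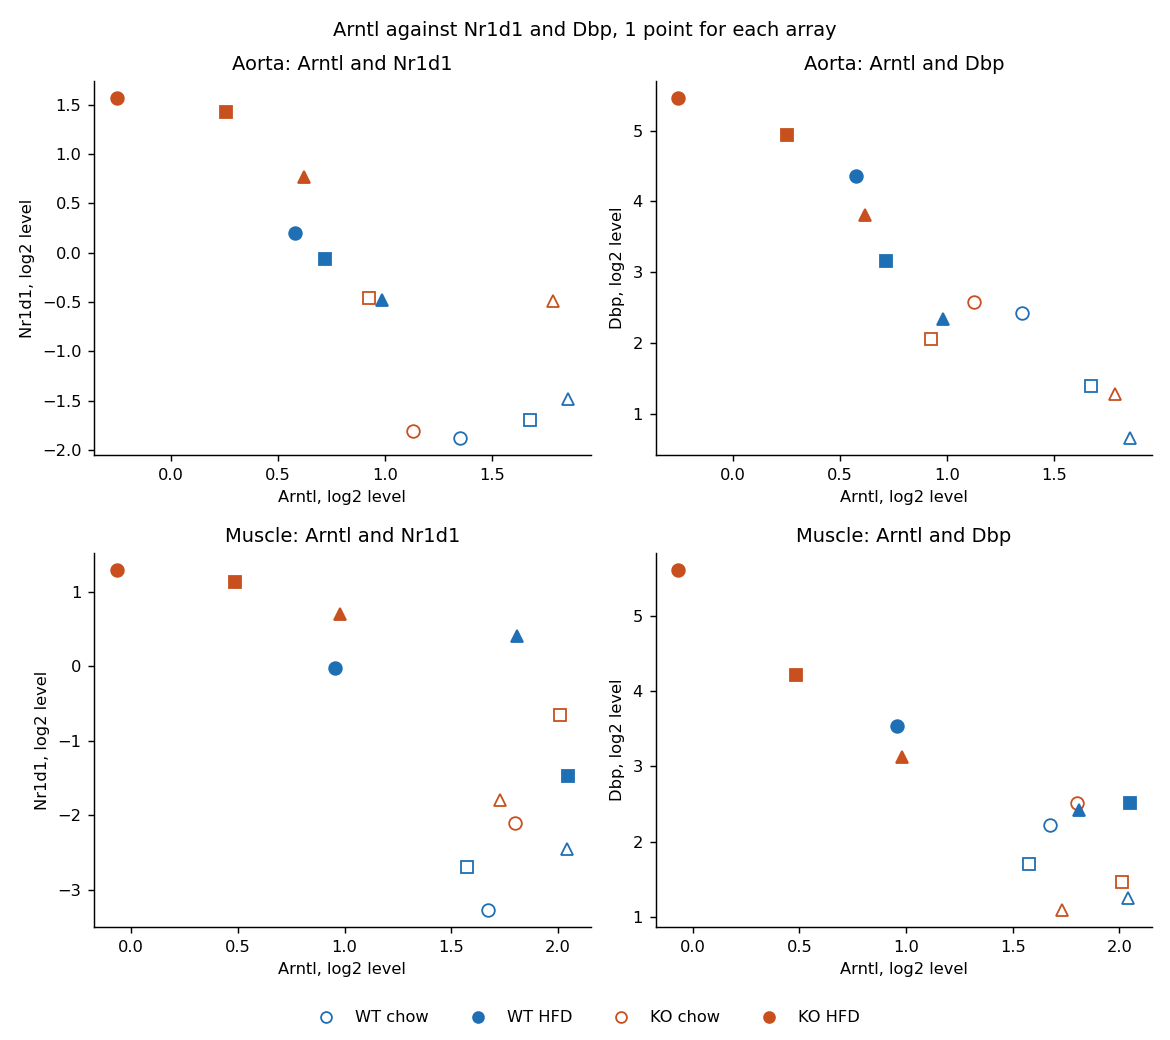
Log2 level of Arntl (horizontal axis) against Nr1d1 (left) and Dbp (right) in aorta (top) and muscle (bottom), 1 point for each of 12 arrays, blue WT and orange KO, open chow and filled HFD, shapes for experiments. The KO HFD arrays lie among the lowest in Arntl and above all others in Nr1d1, and the Dbp points in aorta (r = -0.96) follow Arntl downward most closely.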

How the data were processed

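RNA of sorted endothelial cells was labelled with Cy3 and hybridised to 24 Agilent whole mouse genome arrays, 1 array for each tissue of a pool of animals. The deposited intensity values are Agilent Feature Extraction processed signals (version 10.5.1.1 per the file headers, 9.1 per the submitters' processing notes), already background-subtracted and detrended, but not scaled between arrays. The deposited log2 table of the authors equals the log2 processed signals plus 1 constant for each array and was used as an alternative.

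Outlier spots and control spots were left out, spots of a probe were averaged, and log2 of the signal over the array's 75th percentile was taken. A probe entered the test if 1 or more groups of the fit had it well above background on all their arrays (25865 probes in aorta, 25682 in muscle, 27387 over both). Symbols came from the accession of each probe through a RefSeq table (27479 of 41174 probes with 1 symbol). Differences were tested with limma 3.58.1 in R 4.3.3 (lmFit and eBayes) and adjusted by Benjamini-Hochberg over all probes tested, with a threshold of 0.05. HFD against chow used each strain and experiment as a block, after the study's methods, which take ratios within an experiment. Samples of the same number deviated together unevenly (r from 0.0077 to 0.37 in aorta and 0.038 to 0.46 in muscle). KO against WT used 4 group means, and aorta against muscle 8 group means with slide as a random block (correlation 0.28). The relations of Arntl used an exact permutation within groups (1296 orders). The methods' t-test was run on the same values. The fits and the permutation test were tested on simulated data.

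The members and lists were chosen with earlier results of these data known. The named genes are the members, Lgals3, genes of the output and turnover lists past the threshold or among the 4 of largest change, and the 5 genes most like or opposite Arntl and Nr1d1. A gene of the output list is not reported here by name. The contrasts over both tissues and the values of a gene's next brightest probe were chosen after seeing the data. Alternatives were another background correction (normexp with offset 50 on the median signals, since mean signals were not used here), quantile scaling, the deposited table, other filters on dim probes, other blocks and each experiment left out. The number of arrays limits the precision. Promoter letters are from a RefSeq table on GRCm38.p6, while the array design is annotated to another build, so no probe position was used. Computation used Python 3.11.15, pandas 2.3.3, numpy 2.4.6, scipy 1.17.1 and matplotlib 3.10.9.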

Additional observations from a re-analysis of the deposited data

Results flagged for a closer look

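Per3 in aorta was lower on HFD in WT in 3 of 3 experiments (-1.04, -3.11 and -0.12) and higher in KO in 3 of 3 (1.19, 0.43 and 1.49), so that every pair of one strain moved opposite to every pair of the other. The KO difference minus the WT difference was 2.46. The difference was not tested, since the Per3 probe was well above background on 1 of 12 aorta arrays, and values below background carry no order.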

How the results depend on the processing

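Of 1162 values of 112 member comparisons under the alternatives, 1074 kept their sign and side of the threshold. Of the rest, 52 changed sign with no call in either setting (31 of them with an experiment left out). Another 24 lost a call, 12 gained one and 0 called values changed sign. The 1162 include values of a gene's next brightest probe, which is a change of probe and not of processing. The 2 muscle diet calls over both strains became 1 with quantile scaling (Nr1d2), 1 with the deposited table (Nr1d2), 1 with no replicate block (Nr1d1, with Nr1d2 at adjusted p = 0.0955) and 0 with no filter on dim probes, and 0 to 0 with each experiment left out. In aorta 0 became 1 with no replicate block (Nr1d1, adjusted p = 0.0318), and in WT muscle 0 became 1 when only probes well above background on every array were used (Nr1d2, adjusted p = 0.0493). Slide as a replicate block in place of the pairs changed no count of members called for diet. Over both tissues 2 became 1 with quantile scaling (Nr1d2), 0 with no filter, and 0 to 0 with each experiment left out, and Arntl gained a call with normexp (adjusted p = 0.0374) and with the strict filter (adjusted p = 0.0329). The 1 tissue call (Per1) became 0 with the deposited table (adjusted p = 0.0624), 3 with no replicate block (Arntl, Cry1, Per1), 5 with a fixed replicate block for the animal pool (Arntl, Clock, Cry1, Nr1d1, Per1) and 0 to 2 with an experiment left out. Leaving out an experiment leaves 2 pairs a strain, and the cause of the other changes was not tested. The Dbp diet calls were lost in 5 of 10 alternatives in each tissue: the 3 experiments left out, no filter (adjusted p = 0.0600 in aorta and adjusted p = 0.143 in muscle) and no replicate block (adjusted p = 0.0832 and adjusted p = 0.122). Rora in muscle gained a call with the strict filter (adjusted p = 0.0449) and with slide as a replicate block (adjusted p = 0.0473). In the tissue contrast Csnk1e lost its call in 5 of 10 alternatives, among them quantile scaling (adjusted p = 0.0574) and the deposited table (adjusted p = 0.174), and Usp2 in 3 of 10, among them no filter (adjusted p = 0.0534). Signal near background limits Npas2 and Per3.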
